A study of Rattus norvegicus with 192 samples.

Results

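The genes described here are the xenobiotic metabolism enzyme genes of the rat nucleus accumbens core, a ventral striatal region, as measured by sequencing of polyA RNA in heterogeneous stock rats. They were chosen by symbol alone: every gene whose symbol belongs to the cytochrome P450 (Cyp), glutathione transferase (Gst), UDP-glucuronosyltransferase (Ugt), sulfotransferase (Sult) or carboxylesterase (Ces) families. This rule took 153 of the 38354 genes in the deposited table, namely 82 P450s, 23 glutathione transferases, 17 Ugt genes, 14 Sult genes and 17 Ces genes. Symbols with a form outside this pattern, such as those of locus-number copies, were not taken.

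The animals are outbred rats, each of a different genetic make-up, and the labels used here give no treatment, sex, age or batch. Libraries were therefore grouped by the format of the rat identifier: 67 carried an all-digit identifier (numeric label), 77 one beginning with E21 (E21 label), and 12 an E21 identifier put in place of an earlier label (corrected E21 label). For these 12 the submitters' notes give an original label that begins with the word unknown, before a genotype mismatch fix. What the formats stand for is not stated. The values below come from the 147 of 159 libraries with at least 100 CPM of Drd1, the D1 dopamine receptor of medium spiny neurons, where CPM is an expected count scaled to a total of 1000000 per library. The 12 others lay between 1.61 and 20.0 CPM of Drd1 against at least 154 CPM in every library kept, and they comprised 11 numeric and 1 E21 label. This left 56, 76 and 12 libraries in the numeric, E21 and corrected E21 label groups, plus 3 libraries with other labels that entered no comparison.

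Drug metabolism is usually described in steps: P450s oxidise a compound, carboxylesterases hydrolyse esters, and transferases then attach glutathione, glucuronic acid or sulfate so that it can be exported. Many genes of these families act on the body's own molecules instead, such as cholesterol, steroids, retinoic acid, fatty acids and catecholamines, and the brain is known mainly for the latter kind. The family name is therefore wider than its label: 20 of the P450 members are assigned to sterol, steroid, retinoid and vitamin D substrates and 21 to fatty acids and eicosanoids, against 40 assigned to drugs and toxins.

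The mu class glutathione transferases lie side by side on chromosome 2, and they varied together from rat to rat to different degrees. Their promoters are shown because r between pairs of them ran from 0.15 for Gstm2 and Gstm4 to 0.88 for Gstm5 and Gstm1. Gsta1 and Gstk1 are added from other chromosomes because their levels followed Gstm5. Each window runs from 250 bases before to 50 bases after a transcription start in RefSeq (assembly GRCr8) and is written in the direction of the gene. Capitals mark matches on either strand to the antioxidant response element TGACNNNGC, to which NRF2 binds, or to the core of the xenobiotic response element GCGTG, to which the aryl hydrocarbon receptor binds. The windows are Gstm5 at chr2:198219519-198219818 (plus strand), Gstm7 at chr2:198260270-198260569 (minus strand), Gstm2 at chr2:198316868-198317167 (minus strand), Gstm1 at chr2:198343334-198343633 (minus strand), Gstm4 at chr2:198373334-198373633 (minus strand), Gsta1 at chr9:31216483-31216782 (minus strand) and Gstk1 at chr4:72085364-72085663 (plus strand).
Gstm5: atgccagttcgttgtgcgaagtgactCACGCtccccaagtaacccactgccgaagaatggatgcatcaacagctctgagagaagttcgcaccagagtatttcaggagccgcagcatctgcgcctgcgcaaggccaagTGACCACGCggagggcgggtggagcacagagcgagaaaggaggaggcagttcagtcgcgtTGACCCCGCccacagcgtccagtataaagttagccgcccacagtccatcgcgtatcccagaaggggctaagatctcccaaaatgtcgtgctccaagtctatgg
Gstm7: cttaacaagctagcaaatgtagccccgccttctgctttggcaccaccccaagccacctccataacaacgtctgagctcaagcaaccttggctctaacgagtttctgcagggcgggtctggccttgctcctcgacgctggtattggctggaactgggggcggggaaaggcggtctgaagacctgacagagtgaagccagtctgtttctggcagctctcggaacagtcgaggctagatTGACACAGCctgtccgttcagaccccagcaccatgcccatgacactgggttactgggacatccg
Gstm2: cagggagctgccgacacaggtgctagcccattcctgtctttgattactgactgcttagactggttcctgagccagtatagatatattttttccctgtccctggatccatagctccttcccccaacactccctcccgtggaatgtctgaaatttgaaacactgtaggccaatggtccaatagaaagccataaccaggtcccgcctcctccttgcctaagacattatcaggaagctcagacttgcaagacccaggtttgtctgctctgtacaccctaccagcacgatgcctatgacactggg
Gstm1: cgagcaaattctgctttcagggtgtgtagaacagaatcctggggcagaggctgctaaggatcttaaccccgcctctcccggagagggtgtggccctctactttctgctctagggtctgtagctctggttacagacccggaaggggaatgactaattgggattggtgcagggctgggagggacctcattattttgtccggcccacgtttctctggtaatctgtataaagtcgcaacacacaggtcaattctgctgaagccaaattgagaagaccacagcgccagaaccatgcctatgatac
Gstm4: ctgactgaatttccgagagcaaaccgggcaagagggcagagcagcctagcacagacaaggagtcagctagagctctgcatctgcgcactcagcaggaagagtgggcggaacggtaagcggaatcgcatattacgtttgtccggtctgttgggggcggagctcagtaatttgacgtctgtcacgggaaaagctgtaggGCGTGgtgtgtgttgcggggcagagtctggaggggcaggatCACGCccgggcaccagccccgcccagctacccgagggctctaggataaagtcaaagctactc
Gsta1: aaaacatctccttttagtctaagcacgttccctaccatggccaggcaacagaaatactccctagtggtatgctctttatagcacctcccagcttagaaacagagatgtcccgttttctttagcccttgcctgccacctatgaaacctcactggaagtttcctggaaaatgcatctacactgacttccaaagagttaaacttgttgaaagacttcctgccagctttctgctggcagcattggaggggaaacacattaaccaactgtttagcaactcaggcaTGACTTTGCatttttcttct
Gstk1: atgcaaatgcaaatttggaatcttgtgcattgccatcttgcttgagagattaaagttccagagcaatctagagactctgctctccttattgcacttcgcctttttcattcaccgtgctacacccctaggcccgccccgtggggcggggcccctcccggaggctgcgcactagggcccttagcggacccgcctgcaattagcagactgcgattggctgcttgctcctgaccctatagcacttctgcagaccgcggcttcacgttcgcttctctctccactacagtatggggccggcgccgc
Counting the start base as 0, the Gstm5 window held the antioxidant element at -113 and -53 and the xenobiotic core at -224 and -109, the last of these lying inside the first antioxidant match. Gstm7 held the antioxidant element at -14 and Gsta1 at 30, Gstm4 held the xenobiotic core at -53 and -12, and the windows of Gstm2, Gstm1 and Gstk1 held neither. Of 33469 rat promoter windows of this length, 12.1% held the antioxidant element and 29.7% the xenobiotic core, against 16 and 35 of 141 windows of 131 members (11.3% and 24.8%), some members having more than 1 window. The sterol regulatory element TCACNCCAC, searched in the same way, was in none of the windows shown, in 1.12% of all windows and in 1 of the 141. For Gstm1 the RefSeq start used for the window lies 2624 bases from the start given in the deposited table, so its window may not be the promoter in use. For the other 6 windows the distance is at most 104 bases.

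Of the 153 members, 47 had a mean of at least 1 CPM and 15 had no count in any of the 147 libraries. The glutathione transferases were the best represented family, with 17 of 23 members at or above 1 CPM, while only 4 of 40 drug and toxin P450s, 2 of 17 Ugt genes and 1 of 17 Ces genes reached it. The fatty acid and eicosanoid P450s had 10 of 21 members there, the sterol, steroid, retinoid and vitamin D P450s 7 of 20, and the sulfotransferases 5 of 14. The remaining P450, Cyp20a1, also passed. Just inside the threshold were Ugt1a6 at 1.01 and Cyp11b1 at 1.04 CPM, and just outside it were Cyp19a1 (aromatase) at 0.991 and Cyp2j4 at 0.9996 CPM. Cyp2b1 and Cyp2b2, the liver P450s best known for induction by phenobarbital, had no count in any library, which allows up to 3 counts per library, or 0.206 CPM in the shallowest and 0.0490 CPM in the deepest.

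Among P450s with endogenous substrates, Cyp46a1, the neuronal enzyme that hydroxylates cholesterol for removal from the brain, had 312 ± 37.4 CPM (mean and SD, n = 147). Its libraries ran from 218 to 498 CPM, with a median of 306. Cyp51, the lanosterol demethylase of cholesterol synthesis, had 144 ± 21.3 CPM and ran from 89.1 to 224 CPM, with a median of 144. Both genes were thus read in every rat, without a library near 0. Cyp7b1, an oxysterol hydroxylase, had 18.7 ± 3.16 CPM and ran from 11.9 to 28.1 CPM, with a median of 18.3. Cyp20a1, a P450 without an established substrate, had 16.6 ± 2.78 CPM.

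The fatty acid P450s were low to moderate. Cyp4x1, a P450 known for its expression in brain, had 17.7 ± 2.62 CPM, and its libraries ran from 10.8 to 25.8 CPM, with a median of 18.0. The fatty acid hydroxylase Cyp2u1 ran from 10.6 to 20.3 CPM, with a median of 15.1. In both the highest library was close to the next, at 24.7 and 19.2 CPM. The epoxygenase Cyp2j3 ran from 8.91 to 26.1 CPM, with a median of 13.9, and the fatty acid hydroxylase Cyp4v3 from 8.55 to 24.0 CPM, with a median of 13.4. Of the drug and toxin P450s the one with the most reads was Cyp2d4, a rat CYP2D form known from brain, at 14.0 ± 3.80 CPM, and Cyp2s1, Cyp3a9 and Cyp2t1 had between 2.99 and 4.97 CPM on average.

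Glutathione transferases of several classes had more than 50 CPM on average in this tissue: the mu class members Gstm1 (167 ± 53.5 CPM), Gstm7 (141 ± 35.0 CPM) and Gstm5 (58.8 ± 18.8 CPM), omega class Gsto1 (133 ± 20.3 CPM), pi class Gstp1 (120.5 ± 28.0 CPM), alpha class Gsta1 (96.9 ± 24.3 CPM) and theta class Gstt3 (96.3 ± 22.4 CPM). CPM is not scaled by transcript length, and no lengths were used here, so these values rank reads and not molecules. The libraries of Gstm1 ran from 106 to 385 CPM, with a median of 144, and those of Gsto1, a thioltransferase and dehydroascorbate reductase, from 96.6 to 209 CPM, with a median of 131. The highest library therefore stood further above the median for Gstm1 than for Gsto1. Gsta4, which conjugates aldehydes from lipid peroxidation, had 15.7 ± 4.09 CPM, Gsta6 14.5 ± 3.73 CPM and Gstz1, the maleylacetoacetate isomerase of tyrosine breakdown, 24.0 ± 3.43 CPM.

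Sult4a1, a sulfotransferase of neurons with no settled substrate, had the most reads of all members at 320.4 ± 43.1 CPM, and its libraries ran from 227 to 478 CPM, with a median of 313. Sult1d1, which sulfates catecholamines, had 12.9 ± 3.86 CPM and ran from 5.30 to 32.3 CPM, with a median of 12.7. The phenol sulfotransferase Sult1a1 ran from 3.49 to 32.3 CPM, with a median of 9.51. The highest library of Sult1d1 (numeric label, number 5) and that of Sult1a1 (E21 label, number 12) each stood apart from the next at 24.0 and 23.2 CPM. Of the glucuronosyltransferases Ugt1a8 and Ugt1a6 passed the threshold, at 1.61 ± 0.832 CPM and 1.01 ± 0.729 CPM, with no count in 1 and 12 libraries. The only carboxylesterase that passed was Ces5a, at 2.67 ± 0.684 CPM.

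**Figure D1:**
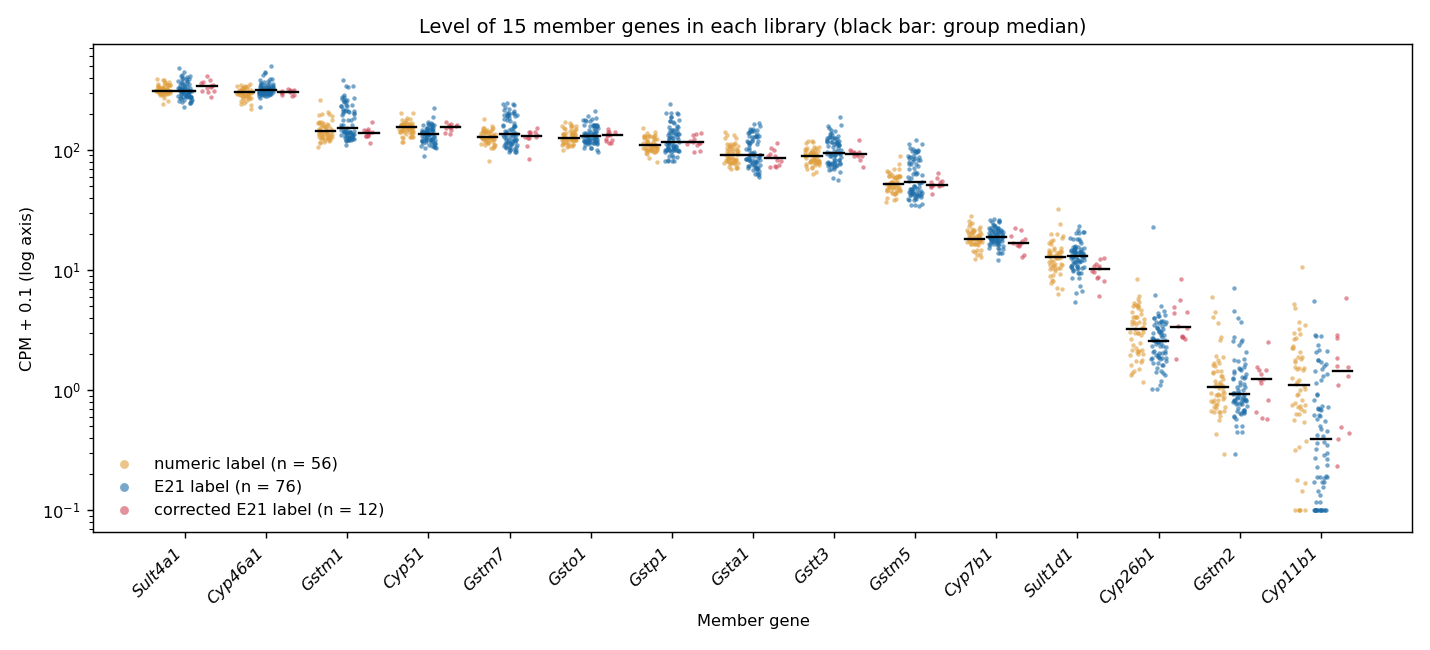
Level of 15 members in each library, in CPM plus 0.1 on a log axis, by label group (56 numeric, 76 E21 and 12 corrected E21 label libraries), with a black bar at each group's median. The groups overlap for every gene shown, the E21 points of Gstm1, Gstm7 and Gstm5 reach above all numeric points, and Cyp11b1 runs from 0 to 10.5 CPM.

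Reads of related genes can be shared, and the expected counts show where. Undivided reads give a whole count and reads divided between genes a fractional one, which could be read for counts under 1023. Counts within 0.01 of a whole number made up 100% of the libraries read for Gstk1, Gsto2, Cyp3a9, Cyp7b1, Cyp2j10, Sult1a1 and Sult1d1, and of the 30 that could be read for Gstm5. They made up 93.9% for Gstm4, 92.5% for Gstm6 and 83.7% for Gstm2, neighbours in the mu cluster. Values of Cyp2r1 (1.36%), Ugt1a6 (2.96%), Ugt1a8 (3.42%), Gstt1 (10.2%) and Cyp11b1 (15.0%) were mostly fractional, so these levels depend on how shared reads were divided. The Ugt1a genes share their last exons, and Cyp11b1 has close copies. The 9 members with at least 1023 counts in every library, Gstm1, Gstm7, Gsto1, Gstp1, Gsta1, Gstt3, Cyp46a1, Cyp51 and Sult4a1, could not be read in this way. No source used here states the strand of the libraries, and overlapping antisense genes could not be told apart.

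The between-rat spread of the members was taken as the SD over the 147 libraries of log2(CPM + 1). The median SD was 0.30 over the 47 members and 0.24 over all 15327 genes tested. These medians are not matched for level, as 28 of the 47 members and 12011 of the 15327 genes averaged at least 5 CPM. An SD of at least 0.5 was reached by 5.07% of all genes and by 3 members, Cyp11b1 at 0.73, Cyp26b1 at 0.52 and Ugt1a6 at 0.51, a share of 6.38% that is near the background. Gstm2 (0.48), Ugt1a8 (0.47), Cyp2j10 (0.47), Sult1a1 (0.46), Gstm5 (0.41), Gstm1 (0.40) and Sult1d1 (0.39) followed. The steadiest members were Cyp46a1 (0.16), Cyp2u1 (0.17), Sult4a1 (0.19), Gstz1 (0.20) and Gstm4 (0.20). Counting error alone would give an SD of 0.017 for Cyp46a1 and 0.04 for Gstm5, but 0.12 for Cyp11b1 and 0.13 for Ugt1a6, so that the spread of the low members is the less certain.

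Single libraries weighed on some of these. Cyp26b1, which breaks down retinoic acid, ran from 0.919 to 22.5 CPM, with a median of 2.77, and the library at the top (E21 label, number 30) was followed by one at 8.37 CPM. Without it the SD was 0.47, under the threshold of 0.5, as was that of Ugt1a6 without its highest library (0.497). Cyp11b1, a steroid hydroxylase of the adrenal cortex, had 20 libraries at 0, a median of 0.599 and a highest value of 10.5 CPM (numeric label, number 6), and its SD without that library was 0.69. Gstm2 ran from 0.191 to 6.95 CPM, with a median of 0.855, and was highest in the E21 label library number 76.

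Most members varied more among E21 label libraries than among numeric label ones, as did most genes: the SD was higher in the E21 group for 42 of 47 members and for 87.0% of all genes tested. The median SD of the members was 0.35 in the E21 group and 0.25 in the numeric group, against 0.26 and 0.19 over all genes. The difference was wide for Gstm5, at 0.51 in the E21 and 0.25 in the numeric group, and for Gstm1, at 0.46 and 0.25. Gstk1, a mitochondrial and peroxisomal transferase, had 0.35 and 0.16, and Cyp2r1, a vitamin D hydroxylase, 0.38 and 0.17. The 5 members with the reverse order were Sult1d1, Cyp7b1, Gsto2, Gstm2 and Cyp11b1. The difference in spread between the groups was not tested.

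**Figure D2:**
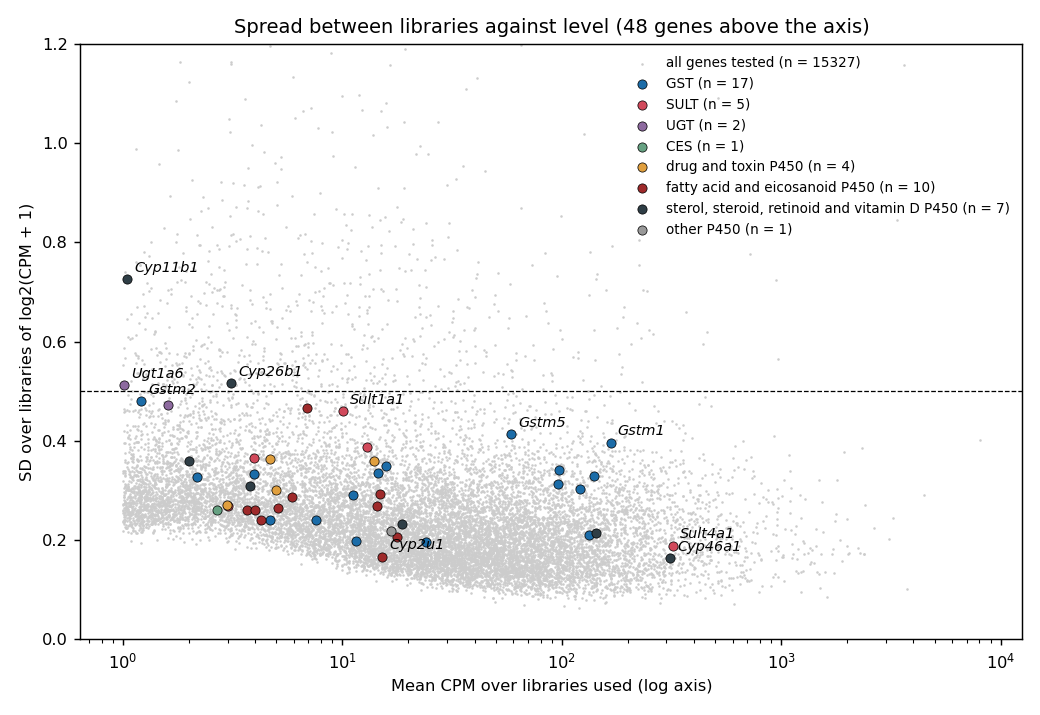
SD over libraries of log2(CPM + 1) against the mean CPM over 147 libraries (log axis), with 1 point per gene: grey for the 15327 genes tested, coloured for the 47 members by family, and a dashed line at 0.5. Members lie within the cloud of all genes, with Cyp11b1 at 0.73 and Gstm5 and Gstm1 near its upper side for their level; 48 genes lie above the axis.

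Separated levels, meaning a gap of at least 1 on the log2 scale with 5% of the libraries or more above it and below it, were found for 16 genes, or 0.104% of those tested, and for none of the 47 members. The widest gap of a member under the same 5% limit was 0.30, in Gstm2. No member passed with a gap of 0.5, with a share of 2.5%, with a pseudocount of 0.1, with median-of-ratios scaling, or within either label group. None was added by the 106 members under 1 CPM, but only 20 of them reached 1 CPM in any library. The others could not show a gap of 1 on this scale, so their levels were not tested by it. Polymorphisms that remove or silence 1 gene copy are well known for glutathione transferases in people, but Gstm1 and Gstt1 had no such gap here: Gstt1 ran from 1.79 to 7.59 CPM, with a median of 3.62, and Gstm1 was at or above 106 CPM in all 147 libraries. Counts of Gstt1 were mostly fractional and those of Gstm1 could not be read for this. How far reads of related genes enter these 2 levels is therefore not known.

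Neighbouring members were then compared over libraries. Among the 47 members, 15 pairs followed each other on a chromosome within 1 megabase, and 12 of the 15 had a Benjamini-Hochberg adjusted permutation p under 0.05 over these pairs (100000 resamples, 2-sided, smallest possible p 1e-05). An r of at least the size of the lowest of these, 0.18, was found for 61.5% of 14787 pairs of consecutive genes tested within the same distance, against 80% of the member pairs, and the median r was 0.42 over the member pairs and 0.097 over all pairs. Gstm5 and Gstm7 had the highest r, 0.81 (rho 0.75, both p = 1e-05, adjusted p = 1.88e-05), and r was 0.79 without the 2 libraries farthest from the median of Gstm5. It was 0.46 within the numeric and 0.89 within the E21 group. Gsta1 and Gsta6 had r = 0.73 (rho 0.74), Gstm7 and Gstm6 0.64 (rho 0.60), Cyp4f5 and Cyp4f4 0.52 (rho 0.46), Gstt1 and Gstt3 0.51 (rho 0.47) and Cyp4f4 and Cyp4f1 0.49 (rho 0.46), each with p = 1e-05 and adjusted p = 1.88e-05 for both measures. Without the 2 farthest libraries these 5 were 0.73, 0.61, 0.49, 0.50 and 0.48.

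Of the 12 pairs, 5 were not called within the numeric group alone, namely Gstm6 and Gstm2, Gstm1 and Gstm4, Gstt2 and Gstt1, Gstt1 and Gstt3, and Cyp4f1 and Cyp4f6, and the same 5 were not called on residuals of the ribosomal protein score described below. Gstt1 and Gstt3 had r = 0.62 within the E21 group but 0.032 within the numeric group, so the pooled value did not hold in both. The adjacent Gsto1 and Gsto2, 11.0 kb apart, had r = -0.036 (rho -0.054, permutation p = 0.666 and 0.519, adjusted p = 0.666 and 0.519), with 0.37 in the numeric and -0.23 in the E21 group. The adjacent Ugt1a8 and Ugt1a6 had r = -0.089 (rho -0.11, permutation p = 0.285 and 0.192, adjusted p = 0.305 and 0.205). Cyp2j10 and Cyp2j3 had the lowest r, -0.18 (permutation p = 0.0330, adjusted p = 0.0413), but rho was -0.13 (permutation p = 0.106, adjusted p = 0.132), and r was -0.46 in the numeric and 0.0058 in the E21 group.

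Shared variation of the glutathione transferases was not limited to neighbours. Over all 136 pairs of the 17 tested transferases the median r was 0.52, and 121 pairs were positive, against a median of 0.21 over all pairs of members. Every negative pair included Gsto2. The pairs of members include the transferase pairs, and pairs of all genes tested were not computed, so the share due to general co-variation is not known. The median was 0.29 within the numeric and 0.60 within the E21 group, and Gsto1 and Gstt3, for example, had -0.20 in the former against 0.40 over all libraries. Gstm5 and Gstm1 had r = 0.88 (rho 0.81), and Gstm5 had r = 0.87 (rho 0.87) with Gsta1 on chromosome 9 and 0.86 (rho 0.80) with Gstk1 on chromosome 4, all with permutation p = 1e-05 for both measures and adjusted p = 1.36e-05 for r over the 136 pairs. Without the 2 farthest libraries these were 0.87, 0.87 and 0.86, and within the numeric group 0.71, 0.80 and 0.72. Gsto2 had the lowest values, r = -0.33 (rho -0.31, permutation p = 3e-05 and 0.000200, adjusted p = 3.85e-05 and 0.000239) with Gstm1. The values of the pairs were known when these were picked out, and the points share library depth and composition.

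Part of this variation ran with the level of ribosomal protein genes, a set added after the data were seen and scored as the mean of their standardised log2 values (76 genes, between 1.28% and 3.04% of all counts in the label groups). Gsta1 had r = 0.85 (rho 0.83) with this score, Gstm5 0.85 (rho 0.85), Gstz1 0.76 (rho 0.77), Gstm1 0.76 (rho 0.76) and Gstk1 0.75 (rho 0.72), all with permutation p = 1e-05 for both measures, and r was 0.85, 0.83, 0.75, 0.75 and 0.75 without the 2 farthest libraries. Each held within both groups, with Gstm5 at 0.85 in the numeric and 0.87 in the E21 group. With the score regressed out, the median r of the 136 transferase pairs fell from 0.52 to 0.14, the SD over libraries of Gstm5 was 0.22 in place of 0.41, and Gstm5 and Gstm1 had r = 0.69. An r of at least 0.5 in size with this score was found for 48.9% of the members and for 32.1% of all genes tested. Gstm2, although it lies between Gstm6 and Gstm1, had r = 0.31 (rho 0.38, permutation p = 0.000180 and 1e-05) with it. What the ribosomal score stands for in these libraries was not tested.

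**Figure D3:**
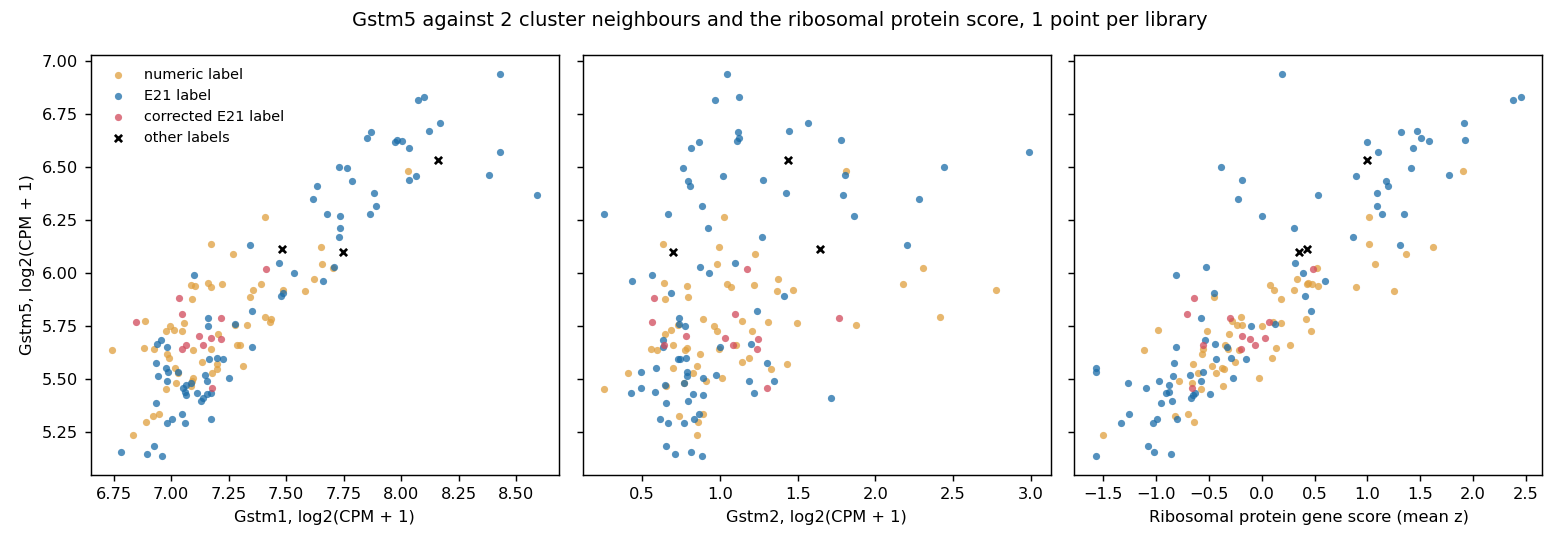
Gstm5 against Gstm1, Gstm2 (both log2(CPM + 1)) and the ribosomal protein gene score (mean of standardised values), with 1 point per library coloured by label group and crosses for the 3 libraries of other labels. Gstm5 rises with Gstm1 (r = 0.88) and with the score (r = 0.85), and the points against Gstm2 are scattered (r = 0.37).

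Levels of cell type markers also moved with many members. Scores of 13 marker lists were made in the same way, and with the ribosomal score 658 relations with the 47 members were computed; in a limma regression over all 15327 genes, 57.3% of these had an adjusted p under 0.05, against 46.4% of the relations of all genes with the same scores. In bulk tissue, fewer cells of a type and less RNA per cell cannot be told apart. Gstm2 followed the meningeal fibroblast score with r = 0.81 (rho 0.65) and limma adjusted p = 2.33e-32, Cyp3a9 the oligodendrocyte score with 0.78 (rho 0.76) and 1.57e-29, and Cyp11b1 the cortical glutamatergic score with 0.77 (rho 0.79) and 2.04e-28. Without the 2 farthest libraries r was 0.78, 0.75 and 0.77, within the numeric group 0.93, 0.77 and 0.74, and within the E21 group 0.74, 0.81 and 0.75. Permutation p was 1e-05 for r and rho of every relation named in this paragraph and the next.

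Astrocyte markers rose with Cyp2j3 at r = 0.73 (rho 0.69), Cyp4v3 at 0.71 (rho 0.63), Gsta1 at 0.69 (rho 0.65), Sult1d1 at 0.64 (rho 0.59) and Cyp7b1 at 0.64 (rho 0.58). Cyp4x1 ran the other way, at -0.64 (rho -0.59). In the same order, r was 0.73, 0.76, 0.73, 0.61, 0.61 and -0.66 without the 2 farthest libraries. An r of at least 0.5 in size with the astrocyte score was found for 31.9% of members and 9.81% of all genes. The microglia score gave 0.81 (rho 0.81) for Gsta1 and 0.73 (rho 0.75) for Gstm5, and 0.80 and 0.75 without the farthest libraries; here 40.4% of members and 18.0% of all genes reached 0.5. Cyp46a1 rose with the medium spiny neuron score at 0.60 (rho 0.63), with 0.80 in the numeric and 0.42 in the E21 group. Cyp51 fell with that score at -0.65 (rho -0.68) and rose with the cortical score at 0.65 (rho 0.67), as did Cyp27a1, a mitochondrial sterol hydroxylase, at 0.67 (rho 0.68). Cyp2j10 rose with the oligodendrocyte score at 0.61 (rho 0.63). Without the farthest libraries these were 0.53, -0.61, 0.65, 0.68 and 0.60. Limma adjusted p was at most 1.98e-14 for all relations of this paragraph.

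The cortical, oligodendrocyte, astrocyte, endothelial and meningeal scores together took up 82.0% of the variance of Cyp51, 70.6% of that of Gstm2, 66.8% of Cyp11b1 and 65.8% of Cyp3a9. They took up 3.65% for Ugt1a6 and 4.03% for Ugt1a8, whose values were mostly fractional. The median was 38.1% over members and 24.2% over all genes tested.

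**Figure D4:**
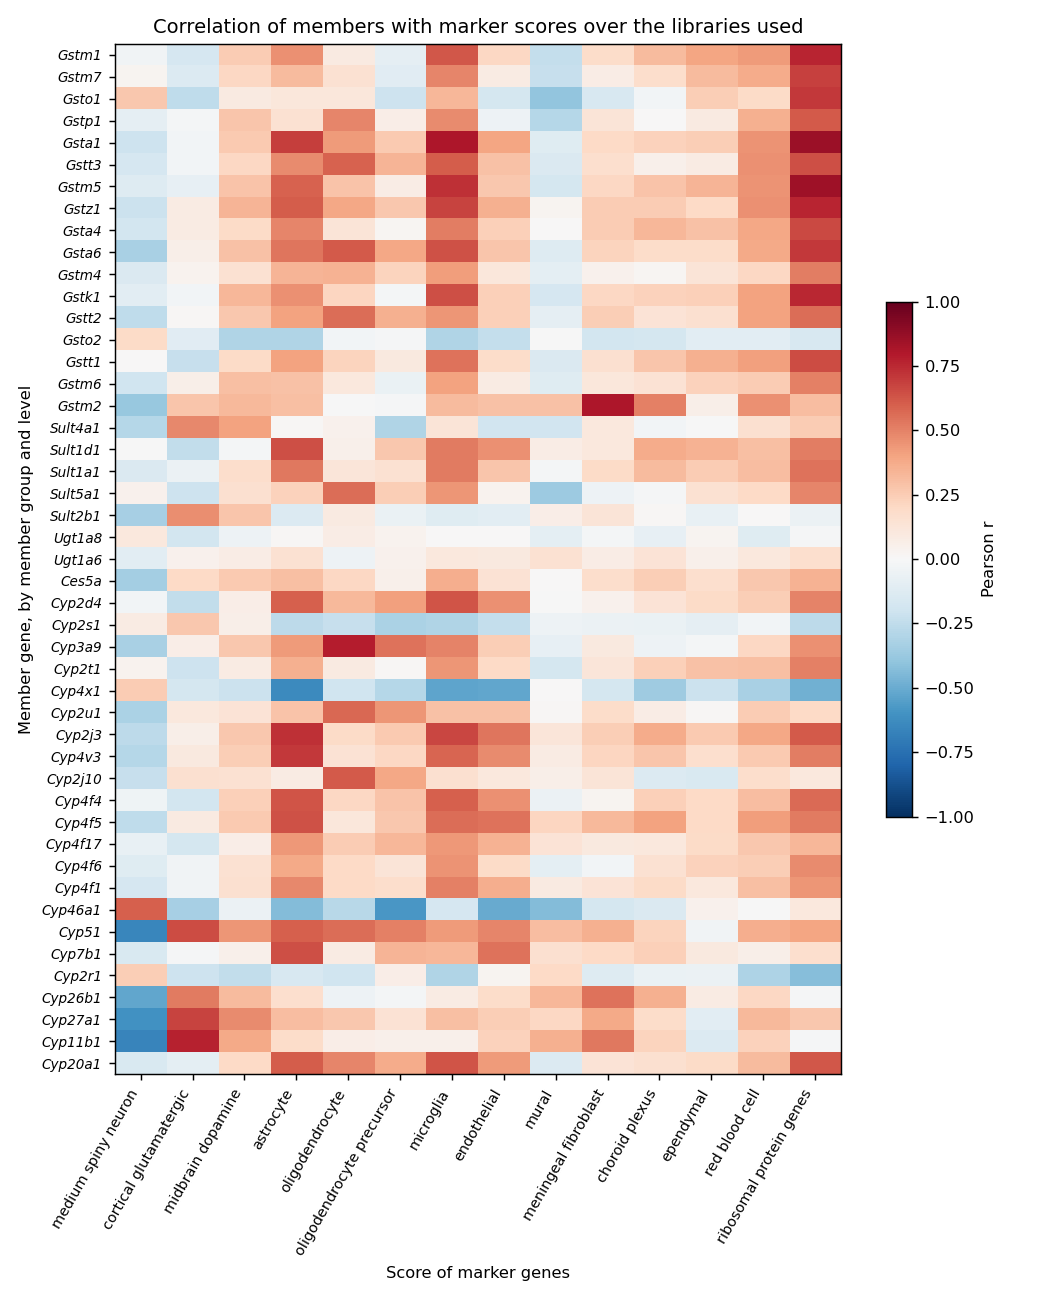
Pearson r over 147 libraries between each of the 47 members (rows, by family and level) and the scores of 13 cell type marker lists and of ribosomal protein genes (columns), red for positive and blue for negative. Most transferases are red in the microglia and ribosomal columns, Gstm2 stands out in the meningeal column (0.81), Cyp11b1 in the cortical one (0.77), and Cyp4x1 and Cyp46a1 are blue in the astrocyte and endothelial columns, where most others are red.

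The E21 and numeric label groups differed in depth, with median totals of 22.0 and 26.3 in units of 1000000 expected counts, and in cortical markers, whose 8 genes summed to medians of 152 (25.4 to 1450) and 360 (43.9 to 1314) CPM. In limma's moderated test over all genes, 12.3% of genes were higher in the E21 group and 26.6% were lower at an adjusted p under 0.05. Of the 47 members 14 were higher and 2 were lower, with a median log2 difference of 0.046 over members and -0.029 over all genes. Higher calls were 31.6% of all genes called, but 50.7% after median-of-ratios scaling and 55.04% after quantile normalization. The members gave 14 higher and 2 lower with the former and 17 and 2 with the latter. With the log2 total count as a covariate, 6 were higher and 2 lower, beside 842 and 2449 of all 15327 genes. With the 12 libraries of low Drd1 added, 9 were higher and 8 lower of 48, beside 2761 and 4758 of all 15427 genes.

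Glutathione transferases made up 8 of the 14 higher members, and 8 of 17 tested transferases passed with none lower. This count depended on depth. With the log2 total count as a covariate Gstm1 and Gstt1 kept their calls, while Gstm5, Gstm7, Gstt3 and Gstk1 lost them. Gstm1 had a lowest, median and highest value of 106, 143 and 260.1 CPM in the numeric and 109, 153 and 385 CPM in the E21 group. The ranges overlapped, and 11 of 76 E21 libraries exceeded every numeric library. The means were 148 ± 28.1 and 183 ± 63.99 CPM (SD, n = 56 and 76), and the E21 minus numeric difference on the log2(CPM + 1) scale was 0.25 (SE 0.065, adjusted p = 0.00106). Gstm7 showed the same form, with 80.3, 128 and 180.0 CPM against 95.6, 136 and 247 CPM, 20 E21 libraries above all numeric ones, and a log2 difference of 0.17 (SE 0.054, adjusted p = 0.00967). Of these, 10 libraries exceeded the numeric range for both genes. Gstm5 had 36.7, 52.1 and 88.5 CPM against 34.2, 53.7 and 122 CPM and differed by 0.17 (SE 0.07, adjusted p = 0.0461), and the call was lost with all libraries, the cortical score, the total count or no filter (log2 differences 0.049 to 0.20 over the alternatives).

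Theta class Gstt1, Gstt3 and Gstt2 differed by 0.19 (SE 0.056, adjusted p = 0.00560), 0.16 (SE 0.053, adjusted p = 0.00920) and 0.11 (SE 0.042, adjusted p = 0.0210). Gstk1 differed by 0.15 (SE 0.049, adjusted p = 0.00873), but by -0.033 when the 12 libraries of low Drd1 were added, and Gstp1 by 0.14 (SE 0.052, adjusted p = 0.0223). At least 1 transferase was above every numeric library in 33 of the 76 E21 libraries, and at least 1 was below every numeric library in 26. Of all E21 values of the 17 transferases 12.0% were above and 4.02% below the numeric range, against 4.90% and 7.53% over all genes tested. Gstk1 was above it in 19 libraries and below it in 6, Gsta1 in 11 and 7, Gstz1 in 5 and 10, and Gstm4 in 3 and 8. The calls of Gstm7, Gstt3 and Gstk1 were lost with total count as a covariate, and that of Gstt1 with the cortical score. Only 6 members were higher with total count, and Gstm1, Gstt1, Cyp2t1, Cyp2d4 and Cyp4f4 were among them. Gstt2 and Gstp1 therefore cannot both have kept their calls there.

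The P450s called in this comparison went both ways. Cyp46a1 had 218, 302 and 357 CPM in the numeric and 229.6, 314 and 498 CPM in the E21 group (lowest, median, highest), so the ranges overlapped, and its log2 difference was 0.12 (SE 0.027, adjusted p = 0.000326). Cyp51 went the other way, with 116, 154 and 205 CPM in the numeric and 89.1, 136 and 224 CPM in the E21 group, overlapping ranges and a difference of -0.18 (SE 0.034, adjusted p = 8.7e-06). The call of Cyp51 held in all 10 alternatives, with log2 differences of -0.32 to -0.076. Cyp11b1 had 0, 0.995 and 10.5 CPM in the numeric and 0, 0.294 and 5.38 CPM in the E21 group and differed by -0.50 (SE 0.12, adjusted p = 0.000393). Once the cortical score entered the fit, the difference was -0.011 (limma adjusted p = 0.936), and with the 5 marker scores it was -0.0044 (limma adjusted p = 0.971). Cyp2t1 (0.18), Cyp2d4 (0.16), Cyp4f4 (0.15), Cyp20a1 (0.10) and the sulfotransferase Sult5a1 (0.19) were higher, with limma adjusted p from 0.000473 to 0.0278. Cyp2d4 was not called with the cortical score, the 5 marker scores or all libraries (lowest log2 difference 0.062), Sult5a1 not with the cortical score, the 5 scores or total count (lowest 0.11), and Cyp2t1 not with all libraries (0.063). Sult4a1, with medians of 311 and 311 CPM, differed by -0.018 (SE 0.033, adjusted p = 0.697).

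Between the corrected E21 and E21 label groups 9.34% of all genes were higher and 3.2% lower in the former, and 4 members were higher and 2 lower. Higher calls were 74.5% of all genes called, but 53.2% after median-of-ratios scaling, where the members gave 4 higher and 4 lower, and 51.7% after quantile normalization, where they gave 3 and 7. The cortical marker genes summed to a median of 639 (48.2 to 1007) CPM in the corrected group against 152 CPM in the E21 group. Cyp11b1 had 0.134, 1.34 and 5.74 CPM in the 12 corrected libraries and differed by 0.60 (SE 0.21, adjusted p = 0.0443). Cyp27a1 had 1.21, 2.61 and 3.94 CPM against 0.615, 1.62 and 4.60 CPM and differed by 0.38 (SE 0.11, adjusted p = 0.010). Sult2b1, which sulfates cholesterol and hydroxysteroids, differed by 0.29 (SE 0.081, adjusted p = 0.00761) and Cyp51 by 0.21 (SE 0.06, adjusted p = 0.0129). The 2 lower members were Sult1d1 with 5.93, 10.0 and 12.5 CPM against 5.30, 12.9 and 23.2 CPM, a difference of -0.37 (SE 0.12, adjusted p = 0.0232), and Gstm1, a difference of -0.32 (SE 0.11, adjusted p = 0.0472). The ranges overlapped for all 6. With the cortical score as a covariate, or the 5 marker scores, no member passed (9 and 3 of 47 at an unadjusted limma p under 0.05). Few genes of any kind passed there: 139 higher and 30 lower of 15327 with the cortical score, and 2 and 0 with the 5 scores. With the cortical score the log2 difference was -0.31 for Gstm1, -0.27 for Sult1d1, 0.16 for Sult2b1, 0.077 for Cyp27a1, 0.062 for Cyp51 and -0.066 for Cyp11b1. With the 5 scores it was -0.19 for Gstm1 and -0.098 for Sult1d1. When the 12 libraries of low Drd1 were added, 1 of 48 members passed, beside 634 higher and 131 lower of all 15427 genes. Both comparisons share the E21 group, so their values are not independent.

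**Figure D5:**
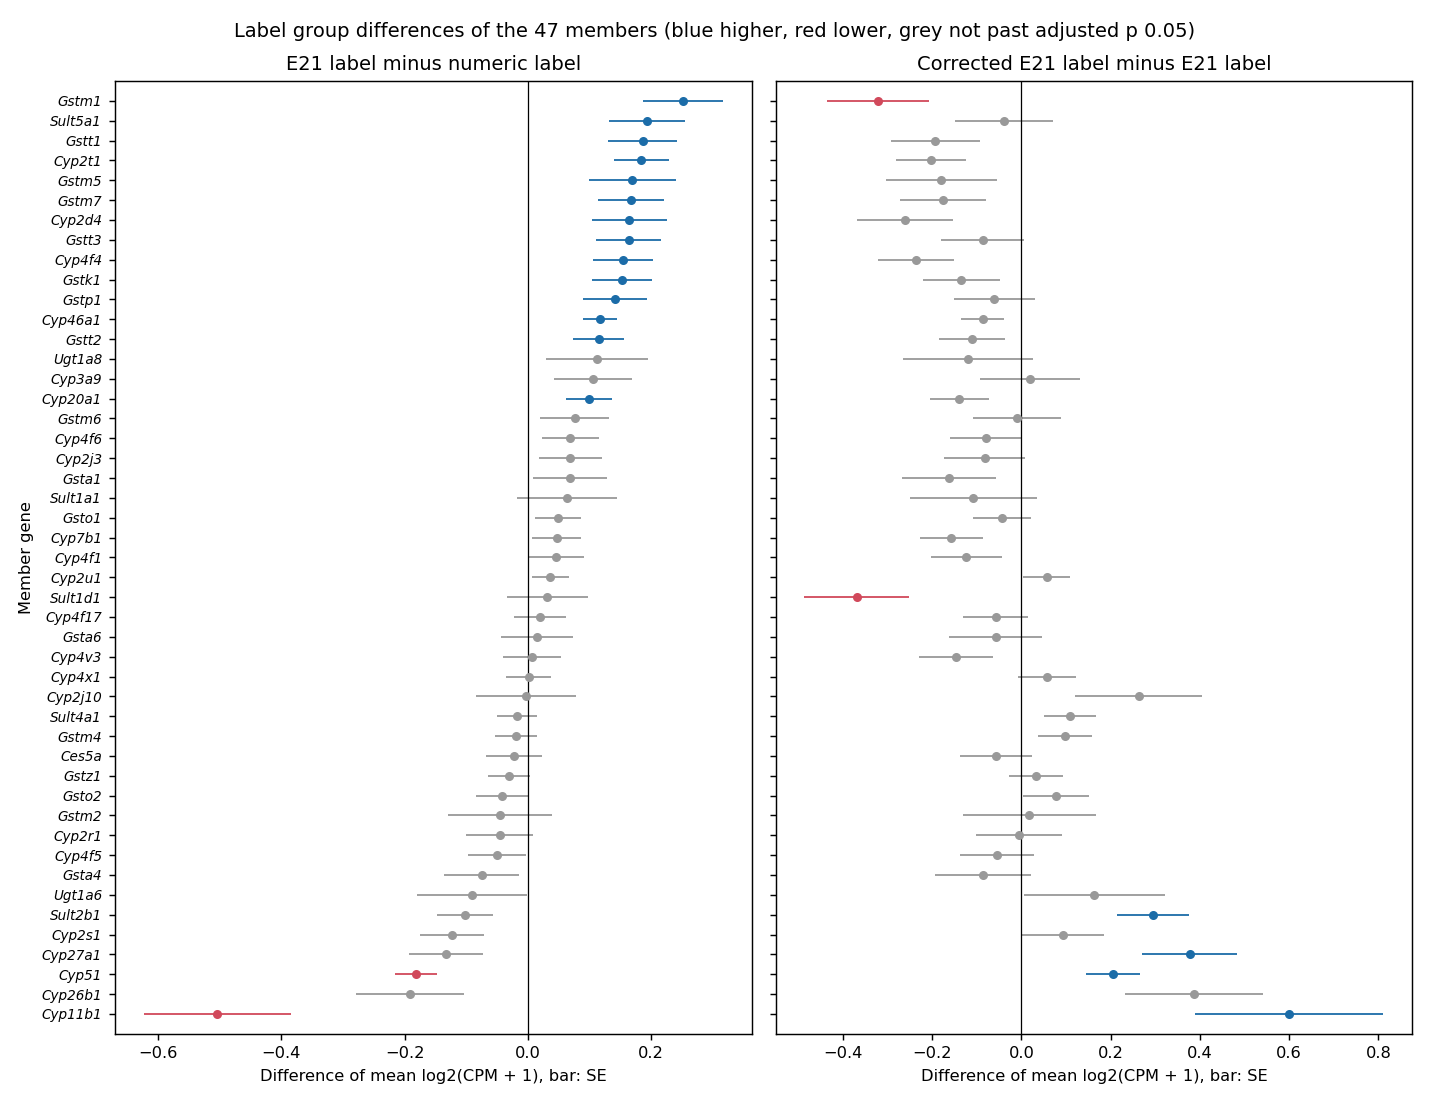
Difference of mean log2(CPM + 1) between label groups for each of the 47 members, with bars of 1 SE: E21 minus numeric label on the left, corrected E21 minus E21 label on the right, blue for higher, red for lower and grey for members not past an adjusted p of 0.05. On the left 14 members are blue and 2 red, with Cyp11b1 at -0.50 and Gstm1 at 0.25, and on the right 4 are blue and 2 red, with wider bars.

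Genes that serve the same pathway outside the symbol rule were described from lists, whose counts are to be read against the 12.3% higher and 26.6% lower of all genes in the first comparison and 9.34% and 3.2% in the second. In the E21 against numeric comparison the NRF2 target genes had 0 of 10 higher and 4 lower, among them Gclm, a subunit of the glutathione synthesis enzyme, at -0.17 (adjusted p = 9.09e-05), Me1 at -0.27 (adjusted p = 0.000116) and Srxn1 at -0.13 (adjusted p = 0.000134). The list median was -0.024, against -0.029 over all genes. The glutathione transferases, several of which are known NRF2 targets in other tissues, had a median of 0.076 in the same comparison. Of 13 tested xenobiotic sensors 2 were higher, Rxrg at 0.14 (adjusted p = 0.00366) and Rxrb at 0.06 (adjusted p = 0.00432), and 1 was lower, the aryl hydrocarbon receptor Ahr at -0.15 (adjusted p = 0.00894). Ahr had means of 3.95 and 3.52 CPM in the numeric and E21 groups. The 9 electron transfer partners of P450s had 3 higher, including Cyb5a at 0.17 (adjusted p = 0.00168) and Cyb5r3 at 0.10 (adjusted p = 0.00363), and 1 lower, Cyb5b at -0.20 (adjusted p = 0.00105).

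Cofactor synthesis had 2 of 11 tested genes higher and 1 lower, with Papss1, which makes the sulfate donor, at 0.11 (adjusted p = 1.06e-05) and its transporter gene Slc35b2 at 0.14 (adjusted p = 0.00228). Gclm stands in both this list and the NRF2 list. Of 25 other phase 1 and 2 enzymes 7 were higher and 4 lower, with the flavin monooxygenase Fmo1 at 0.25 (adjusted p = 0.000678), the microsomal transferase Mgst1 at 0.22 (adjusted p = 0.00127) and the xanthine dehydrogenase Xdh at -0.22 (adjusted p = 0.00222). Membrane transporters of drugs and conjugates, a list of Abc, Slco and Slc22 genes, had 0 of 11 higher and 3 lower, a share near that of all genes. These were Abcc1 at -0.14 (adjusted p = 0.0162), Slco2b1 at -0.10 (adjusted p = 0.0313) and Abcc2 at -0.11 (adjusted p = 0.0394). In the corrected E21 against E21 comparison the counts were 1 higher and 4 lower of 25 for the other phase 1 and 2 enzymes, with Mgst1 at -0.38 (adjusted p = 0.00706), Fmo1 at -0.36 (adjusted p = 0.0150) and Tpmt at 0.19 (adjusted p = 0.0434). Cofactor synthesis had 2 higher, Ggt7 at 0.20 (adjusted p = 0.0264) and Gss at 0.17 (adjusted p = 0.0273), and 1 lower, Gsr at -0.14 (adjusted p = 0.0112). Electron transfer had Cyb5r1 higher at 0.23 (adjusted p = 0.0108) and Pgrmc1 lower at -0.15 (adjusted p = 0.0177). Me1 was the only NRF2 target called, at 0.33 (adjusted p = 0.0232), and no sensor or membrane transporter passed (1 of 13 and 1 of 11 at an unadjusted limma p under 0.05). All adjusted p-values here are from limma over 15327 genes.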

How the data were processed

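PolyA RNA of the nucleus accumbens core was sequenced, and per the submitters' processing notes kallisto 0.48 was used. No source used here names the annotation, the build or how transcripts were summed. The authors deposited 1 table on the log2 scale, and its values turned out to be expected counts plus 1 before the logarithm, without scaling for depth. Positions matched a GRCr8 gene start or end for all 38278 symbols found in RefSeq. Values were turned back to counts and scaled to CPM. Totals were 14.6 to 61.2 (median 22.9) times 1000000, so 1 CPM is 14.6 to 61.2 counts.

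All 15327 genes averaging 1 CPM or more, 47 members among them, entered limma 3.58.1 (R 4.3.3, trend, 2-sided) on log2(CPM + 1), in 1 fit of 3 label groups with Benjamini-Hochberg adjustment over all genes at 0.05. Fold changes of low genes are understated by the pseudocount. Libraries were treated as separate rats, as their identifiers differ, and no pair correlated above 0.994. P-values measure the spread between these libraries. The limma test of E21 against numeric label and the gap rule were checked on simulated data. The genes simulated for limma were independent, with the same spread in every group, unlike the libraries here. The correlations and the marker score regressions were not checked in this way. Symbols, gene lists and tests were chosen with earlier results of these data known. The text names members with separated levels, the 20 with the highest mean, the 10 highest and 5 lowest by SD, up to 10 called each way per comparison, the 6 highest and 3 lowest neighbouring pairs, and up to 3 genes per other list with the smallest p. Others, including the marker relations, the transferase pairs and the low members, were chosen after their values were seen. Python 3.11.15, numpy, pandas and scipy were used.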

Additional observations from a re-analysis of the deposited data

Results flagged for a closer look

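The 12 libraries with Drd1 under 100 CPM entered no comparison. Each of 5 members was above the highest of the 147 libraries used in 11 of these 12, and this signal outside the compared libraries is why they are listed. How many of all genes lay outside that range in the 12 libraries was not counted, so this cannot be read as particular to the members. Cyp51 had a median of 285 CPM over the 12, against a highest value of 224 CPM in the 147. Cyp2u1 had 24.6 against 20.3 CPM, and Gstk1 25.4 against 19.1 CPM. Cyp11b2, the aldosterone synthase of the adrenal cortex, had 1.85 against 0.257 CPM, and its near copy Cyp11b3 0.597 against 0.138 CPM. In the 12 libraries 7 midbrain dopamine markers summed to a median of 4532 CPM (35.8 to 5356), against medians of 32.6 to 56.2 CPM in the 3 label groups. The 8 cortical markers summed to a median of 112 CPM (68.2 to 2680) in the 12. By both ranges the 12 libraries were not alike. The 10 medium spiny neuron markers summed to a median of 379 CPM in the 12, against 5395 to 6096 CPM in the label groups. No test was made.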

How the results depend on the processing

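Of the 47 members, 28 had a mean of at least 5 CPM. The 16 members called between the E21 and numeric groups were 8 with log2 total count as a covariate, and the 27 other pathway genes called were 9; every other alternative run gave 11 to 20 and 19 to 34. With log2 total count, calls over all genes fell as well, from 1878 higher and 4072 lower to 842 and 2449. Between the corrected E21 and E21 groups the 6 member calls were 0 with the cortical score or the 5 marker scores as covariates, 1 with all libraries and 10 with quantile normalization, and the 11 other pathway genes called were 0, 0 and 2 under the first 3 of these. Calls over all genes fell there too, from 1432 higher and 491 lower. They were 139 and 30 with the cortical score, 2 and 0 with the 5 scores, and 634 and 131 with all libraries. Of the named members the log2 difference reversed for Gstk1 with all libraries (E21 minus numeric, -0.033), and for Cyp11b1 in the corrected comparison with the 5 scores (-0.027) or the cortical score (-0.066). With all libraries 1 member, Cyp46a1, had separated levels, with 11 libraries on the low side, a gap of 1.53. Residuals on the ribosomal score turned r of Gstm1 and Gstm4 to -0.17, and the E21 group alone gave 0.0058 for Cyp2j10 and Cyp2j3. The cause of these changes was not tested. Fits with the ribosomal score, and the spread on residuals or without each member's highest library, were chosen after seeing the data. The median SD of the members stayed between 0.23 and 0.35. For named members, 98 of 116 alternative values kept their call in the first comparison and 35 of 57 in the second. In the first, these values cover the 10 largest rises and the 2 falls. Gstp1, Cyp46a1, Gstt2 and Cyp20a1, also called, are left out of that share. They cannot all have kept their calls with log2 total count, where 6 members were higher. No paired analysis was possible because replicate numbers follow accession order and pair no libraries. Depth limits the members under 1 CPM, where 106 of 153 lie.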

Other observations

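Among the 106 members with a mean under 1 CPM, 20 reached 1 CPM in at least 1 library, and some did so in the same few libraries. Cyp2g1, a P450 known from olfactory epithelium, had 51 counts (2.23 CPM) in E21 label library number 75 and 15 counts (0.896 CPM) in number 38, and was at 0 in 138 of 147 libraries. Ugt2a1, also known from olfactory epithelium, had 26 counts (1.55 CPM) in number 38 and 25 counts (1.09 CPM) in number 75. Next for both genes was E21 label number 68, at 0.334 CPM of Ugt2a1 and 0.286 CPM of Cyp2g1. Cyp2a3, known from lung and nasal tissue, had 96 counts (2.62 CPM) in numeric label number 6 and 41 counts (1.79 CPM) in E21 label number 75. Cyp2f4 had 35 counts (1.63 CPM) in E21 label number 10 and 12 counts (0.524 CPM) in number 75, and Sult1c3 had 11 and 3 counts in the same pair of libraries and none in the other 145. The counts of Cyp2g1, Ugt2a1 and Cyp2f4 were whole in every library above 0. The source of these reads was not tested.

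Within the Ugt1a cluster, Ugt1a2 had 9.85 CPM in E21 label number 5 against 2.14 CPM in the next library, and Ugt1a9 had 5.62 CPM in E21 label number 76 against 0.839 CPM in the next. Whole counts made up 1.69% for Ugt1a2 and 0% for Ugt1a9 of the libraries above 0, so both rest on divided reads. E21 label number 5 was also the highest library for Gstp1, Gstm1, Cyp46a1 and Ces5a, and number 76 for Gstm6 and Gstm2.

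In the 12 libraries of low Drd1, Cyp46a1 had a median of 69.1 CPM (60.7 to 286), with 11 below the lowest of the 147 at 218 CPM. Gsto1 had 62.1 CPM and Cyp4f4 2.22 CPM, again with 11 below the lowest of the 147 (96.6 and 3.55 CPM). Here too the share over all genes was not counted.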
